A study of Mus musculus with 25 samples.

Results

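The gene group described here is made of 35 genes of lipid synthesis: 17 enzymes of the cholesterol (sterol) pathway, 15 genes of fatty acid synthesis, elongation, desaturation and use, and 3 regulators of both arms. The members were taken by symbol from a list, not from their values, and all 35 were found among the 53070 gene symbols shared by the deposited count tables. All 35 passed the filter on low counts and were tested.

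Cells build cholesterol from acetyl-CoA by way of mevalonate, farnesyl diphosphate, squalene and lanosterol, and they build fatty acids from the same acetyl-CoA by way of malonyl-CoA. Both arms are driven by SREBP transcription factors, which are held in the endoplasmic reticulum by INSIG proteins while sterols are plentiful and move to the nucleus when sterols fall. SREBP-2, encoded by Srebf2, is best known for the sterol genes, and SREBP-1, encoded by Srebf1, for the fatty acid genes. In the mammary gland the fatty acid arm is known for supplying milk fat from secretory alveolar cells, and fat cells of the surrounding pad use the same enzymes.

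The libraries are mRNA sequencing of mouse mammary tumours from a study of chromatin regulators lost in tumours with an activated Pik3ca. All 25 tumours carried LSL-Pik3caH1047R, a mutant allele switched on by Cre, and LSL-Cas9-EGFP, a Cas9 and green fluorescent protein reporter switched on by Cre, the controls included. GFP+ DAPI- cells were sorted from tumours digested first with collagenase and next with trypsin. Ages of the mice were not given.

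In 19 tumours in 7 groups a lentivirus delivered Cre with a guide RNA, in F1 C57BL/6 x FVB/N mice. The guides were non-targeting (sgNT, n = 2, the control) or aimed at Asxl2 (n = 2), Kdm6a (n = 2), Kmt2c (n = 3), Setd2 (n = 2), Apc (n = 4) or Trp53 (n = 4). Asxl2, Kdm6a, Kmt2c and Setd2 encode chromatin regulators, Apc a brake on Wnt signalling, and Trp53 the tumour suppressor p53. The other 6 tumours arose in Mixed C57BL/6 x FVB/N mice after adenoviral Krt5-Cre, which acts in basal cells that make keratin 5. Of these, 3 were Kdm6a wildtype (the control) and 3 were Kdm6a fl/fl, with both Kdm6a alleles flanked by loxP sites. Strain, virus and the cells reached differ between the 7 guide groups and the 2 Krt5-Cre groups and cannot be told apart, so group levels are compared within each set, and 1 test sets the change with Kdm6a loss in both side by side.

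Columns of the count tables carry running numbers only. Column n was taken as the nth sample record. The study's design text gives 1 to 19 to the guide experiment and 20 to 25 to the Cre-Lox experiment, but the order within each rests on the order of the records alone, and every group value below rests on it. The RNA of the targeted gene gives a partial check. Trp53 was at 29.5 to 70.8 CPM (counts scaled to a common library total) in the 4 sgTrp53 libraries and at 70.9 to 140 CPM in the other guide libraries. Apc was at 36.2 to 72.1 CPM in sgApc and at 65.8 to 156 CPM elsewhere, with 3 of the 4 sgApc libraries the lowest. Kdm6a was at 59.9, 60.2 and 83.7 CPM in the Kdm6a fl/fl libraries and at 110, 138 and 118 CPM in the wildtype ones. In sgAsxl2, sgKdm6a, sgKmt2c and sgSetd2 the targeted gene overlapped the other guide libraries, and an edit by a guide need not lower its RNA.

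Libraries held from 7733478 to 43673097 counts, and 6 libraries (2 each of sgKmt2c, sgApc and sgTrp53) were deep, with at least 34244976 counts, while the others held at most 22544202. In 24 libraries 19491 to 23264 genes had a count, against 12757 in sgApc replicate 2, which stands apart. Kdm6a wildtype replicate 2 also stands apart: 6 macrophage markers summed to 14685 CPM there, against 38.2 and 1755 CPM in the other wildtype libraries. Epithelial markers were present throughout, with luminal keratin and junction markers at 261 to 6160 CPM and basal markers at 522 to 18888 CPM over the 25 libraries. Of 10 fat cell markers, 5 had a median of 0 over the libraries (Adipoq, Plin1, Cidec, Cfd and Retn), with Adipoq at no more than 0.252 CPM and Plin1 at no more than 0.824 CPM in any library. Lep and Car3 did not pass 2.48 and 4.26 CPM. The markers with higher levels were Lipe (4.10 to 27.6 CPM), Fabp4 (0.861 to 512 CPM, highest in sgTrp53 replicate 3) and Lpl (5.73 to 762 CPM, highest in Kdm6a wildtype replicate 2). The labels do not say whether the libraries of a group came from separate animals, so p-values measure the spread between these libraries. Replicates 3 and 4 of sgApc were much alike, with a Pearson r of log2 CPM of 0.993, against 0.807 to 0.941 in the other sgApc pairs. Kdm6a fl/fl replicates 1 and 2 had 0.981, against 0.942 and 0.945 with replicate 3. The pairs of sgAsxl2 and sgSetd2 had 0.987 and 0.986. If such pairs share an animal, the spread rests on fewer animals than libraries. In sorted bulk RNA, fewer cells of a type and less RNA per cell cannot be told apart.

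**Figure D1:**
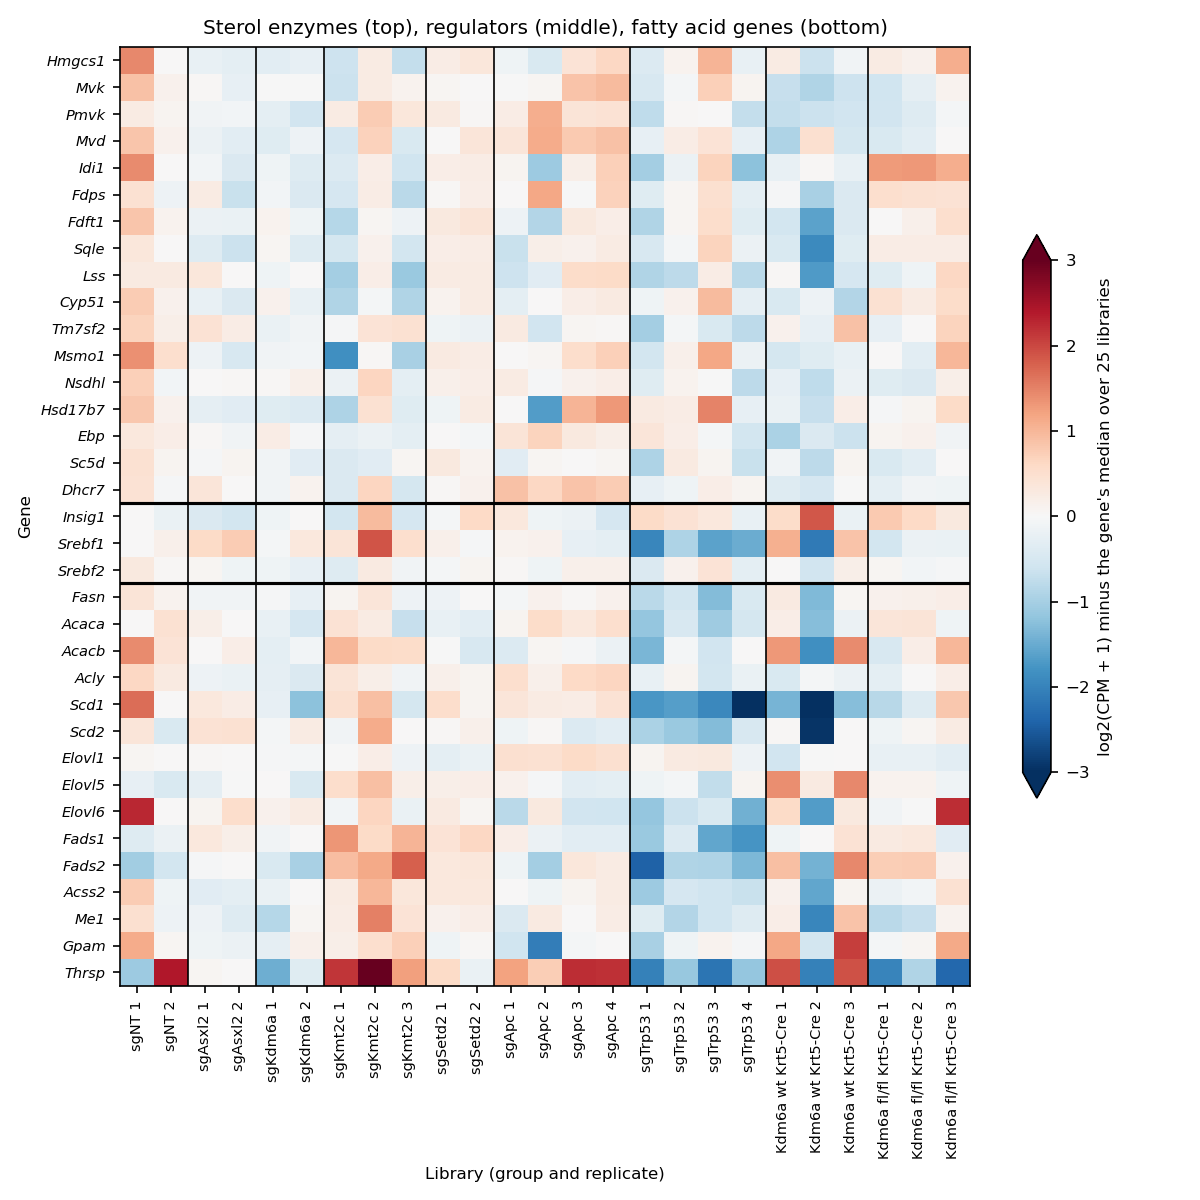
Each of the 35 genes (vertical, by role) in each of the 25 libraries (horizontal, by group), coloured by the difference of log2 CPM from that gene's median over all libraries. The 4 sgTrp53 libraries and Kdm6a wildtype replicate 2 are low across much of the fatty acid arm, and sgNT replicate 1 is high across the sterol enzymes.

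Per kilobase of transcript the fatty acid arm held the most abundant members. Scd2, a stearoyl-CoA desaturase, had a median of 401 TPM (a scale like CPM that also corrects for gene length) over the 25 libraries, and its paralog Scd1 had 308 TPM. Srebf1 followed at 245 TPM. Acly, which makes cytosolic acetyl-CoA from citrate, had a median of 149 TPM, and Fasn, the fatty acid synthase itself, 117 TPM. Among sterol enzymes Ebp (79.6 TPM), Cyp51 (60.3 TPM), Sqle (59.5 TPM) and Hmgcs1 (54.5 TPM) had the highest medians. The lowest were Fdps at 2.67 TPM, Acacb, a mitochondrial acetyl-CoA carboxylase, at 2.73 TPM, Acss2 at 5.09 TPM and Idi1 at 5.38 TPM. Fdps has pseudogene copies and the Scd genes are close paralogs, and no source used here says how reads shared between copies were counted, which leaves their levels uncertain.

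Among the 7 guide groups the members differed in how far the group means spread. The mean CPM in sgKmt2c, the highest, stood above that in sgTrp53, the lowest, by 28.1-fold for Thrsp, 6.28-fold for Fads2, 5.88-fold for Srebf1 and 4.36-fold for Fads1. From sgNT, the highest, to sgTrp53, the lowest, the ratio was 8.77 for Scd1 and 5.51 for Elovl6. These 6 ratios were the largest of the 35, and all of these genes but Srebf1 belong to the fatty acid arm. The smallest were 1.28 for Srebf2 and 1.425 for Sc5d, both from sgNT to sgKdm6a. These ratios are descriptions over groups of 2 to 4 libraries.

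Summed over each arm, the libraries differed by single tumours as well as by group. The sterol enzymes summed to 1101 CPM in sgNT replicate 1, where 17 of 17 lay above their own median over all libraries, and to 694 CPM in sgNT replicate 2. In sgTrp53 they summed to 490, 669, 1002 and 507 CPM. The lowest sterol sum, 387 CPM, was in Kdm6a wildtype replicate 2. The fatty acid arm summed to 1306, 1513, 1145 and 1425 CPM in the sgTrp53 libraries, below each of the other 15 guide libraries, which held 2123 to 4493 CPM. Kdm6a wildtype replicate 2, at 966 CPM, was the only library lower still. That library held the lowest value of 8 of the 15 fatty acid genes, and sgNT replicate 1 the highest value of 6 of the 17 sterol enzymes.

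Promoter windows of RefSeq (GRCm38.p6, 250 bases before to 50 bases after an annotated start) matched 29 of the 35 genes, with 37 windows. The letters CCAAT, read on both strands and known as a site of NF-Y, a partner of SREBP at sterol promoters, were in 27 of the 37 windows and in 37.4% of all 32851 mouse windows of that length. All 14 sterol enzymes with a window and all 3 regulators had at least 1 CCAAT, as did 9 of 12 fatty acid genes. The GC box GGGCGG was in 25 of the 37 windows, against 35.7% of all windows. The letters TCACNCCAC, a form of the sterol regulatory element, were in the Hmgcs1 window only, 1 of 37, against 1.24% of all windows. The E-box CACGTG was in 5 of the 37 windows, against 7.15% of all. These matches are letters in a window, not bound sites.

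The 250 bases before the start are shown for 5 genes that the results below turn on or that frame them: the sterol genes Hmgcs1 and Mvk, the fatty acid gene Fasn, and Thrsp and Elovl5, whose levels differed between groups. Each runs 5′ to 3′ on the strand of its gene. Capitals mark CCAAT or its reverse complement and, in Hmgcs1, the sterol element.
Hmgcs1 (chr13:119690101-119690350, plus strand): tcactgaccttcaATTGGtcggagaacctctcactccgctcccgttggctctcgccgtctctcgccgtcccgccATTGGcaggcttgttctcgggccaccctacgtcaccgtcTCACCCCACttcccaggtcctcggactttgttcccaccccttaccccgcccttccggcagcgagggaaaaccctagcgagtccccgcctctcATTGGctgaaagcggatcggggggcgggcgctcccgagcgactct
Mvk (chr5:114444019-114444268, plus strand): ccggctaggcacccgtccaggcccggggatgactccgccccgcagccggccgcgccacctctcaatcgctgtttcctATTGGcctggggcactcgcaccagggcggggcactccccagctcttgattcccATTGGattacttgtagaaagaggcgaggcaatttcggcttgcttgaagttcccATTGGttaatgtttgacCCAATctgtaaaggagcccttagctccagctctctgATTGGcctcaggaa
Fasn (chr11:120824548-120824797, minus strand): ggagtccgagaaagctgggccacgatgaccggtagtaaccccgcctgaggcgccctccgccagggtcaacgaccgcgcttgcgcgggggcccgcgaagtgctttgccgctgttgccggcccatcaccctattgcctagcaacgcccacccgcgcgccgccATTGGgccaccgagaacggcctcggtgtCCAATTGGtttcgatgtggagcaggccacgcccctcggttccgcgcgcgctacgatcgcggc
Thrsp (chr7:97417551-97417800, minus strand): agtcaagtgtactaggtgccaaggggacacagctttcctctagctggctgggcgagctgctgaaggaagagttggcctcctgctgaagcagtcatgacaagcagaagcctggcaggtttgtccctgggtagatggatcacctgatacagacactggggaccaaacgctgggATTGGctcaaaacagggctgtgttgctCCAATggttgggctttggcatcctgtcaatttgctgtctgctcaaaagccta
Elovl5 (chr9:77917115-77917364, plus strand): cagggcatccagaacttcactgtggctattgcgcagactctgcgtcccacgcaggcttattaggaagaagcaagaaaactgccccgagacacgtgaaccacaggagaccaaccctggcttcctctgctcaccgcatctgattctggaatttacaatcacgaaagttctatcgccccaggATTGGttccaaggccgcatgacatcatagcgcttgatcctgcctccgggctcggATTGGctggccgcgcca
The 250 bases held 5 CCAAT matches in Mvk, 3 in Hmgcs1, 3 in Fasn, where a pair overlaps on opposite strands, and 2 each in Thrsp and Elovl5. In these genes the match nearest the start lay 14 to 59 bases before it, at 14 in Mvk, 17 in Elovl5, 45 in Hmgcs1, 52 in Thrsp and 59 in Fasn.

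The first steps of the sterol arm turn acetyl-CoA into mevalonate and activate it. Hmgcs1, which makes HMG-CoA, was at 190.5 and 69.1 CPM in sgNT, 59.2 and 56.1 in sgAsxl2, 55.7 and 57.8 in sgKdm6a, 44.9, 81.7 and 41.8 in sgKmt2c, and 80.8 and 88.3 in sgSetd2. It was at 63.1, 49.96, 92.8 and 107 CPM in sgApc and at 51.9, 74.8, 142 and 59.1 CPM in sgTrp53. A single high library stood out in sgNT and in sgTrp53, and all groups but these lay between 41.8 and 107 CPM among guide tumours. Mvk and Pmvk, the kinases that phosphorylate mevalonate, ranged from 8.91 to 34.6 CPM and from 14.2 to 54.3 CPM over all 25 libraries, and Mvd, which decarboxylates the product, from 7.94 to 35.7 CPM. Idi1, which isomerises isopentenyl diphosphate, was at 16.7 and 5.65 CPM in sgNT and between 1.85 and 9.84 CPM in the other guide libraries.

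The middle of the arm joins farnesyl units to squalene and closes the ring. Sqle, squalene epoxidase, was at 129 and 101 CPM in sgNT, 76.6 and 63.8 in sgAsxl2, 105 and 77.0 in sgKdm6a, 69.8, 111 and 68.3 in sgKmt2c, and 116 and 119 in sgSetd2. It was at 63.6, 114, 109.7 and 119.8 CPM in sgApc and at 72.1, 96.6, 162 and 89.7 CPM in sgTrp53. The mean in sgSetd2, the highest guide group, stood above that in sgAsxl2, the lowest, by 1.672-fold. Fdft1, squalene synthase, ranged from 23.9 to 82.3 CPM over the guide libraries, and Lss, which forms lanosterol, from 12.4 to 42.0 CPM. The lowest Lss values were the 12.4 and 13.3 CPM of sgKmt2c replicates 3 and 1, while replicate 2 of that group held 32.5 CPM.

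The late steps demethylate and rearrange lanosterol. Msmo1, a sterol C4-methyl oxidase, varied widely within groups: 129 and 69.4 CPM in sgNT, 12.9, 49.99 and 24.6 in sgKmt2c, 49.0, 51.1, 70.9 and 80.4 in sgApc, and 32.7, 54.0, 110.4 and 42.7 in sgTrp53. The 3 sgKmt2c libraries lay below both sgNT libraries, and 34.03% of all genes tested did not overlap between these groups. Cyp51, the lanosterol demethylase, ranged from 41.2 to 151 CPM, Nsdhl from 15.9 to 46.5 CPM, Hsd17b7 from 5.73 to 58.8 CPM and Sc5d from 28.2 to 74.9 CPM. Dhcr7, the last reductase before cholesterol, was at 74.9, 62.1, 73.1 and 68.3 CPM in sgApc and between 27.4 and 63.6 CPM in the other guide libraries. Only sgKmt2c replicate 2, at 63.6 CPM, reached into the sgApc range.

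**Figure D2:**
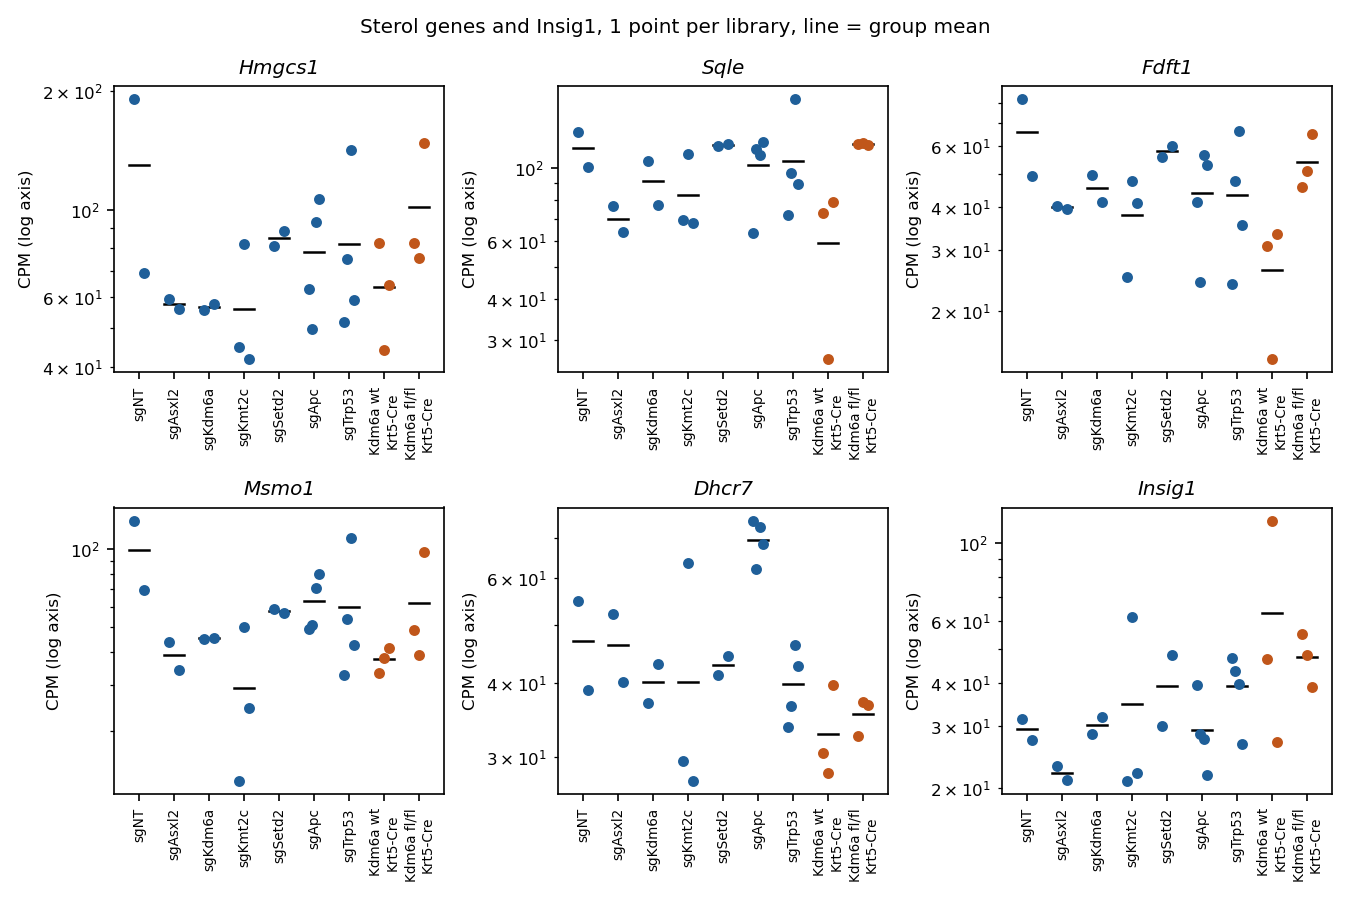
CPM on a log axis of 5 sterol enzymes and Insig1 in every library by group (blue points, guide groups; orange points, Krt5-Cre groups; line, group mean). The 3 Kdm6a fl/fl libraries lie above the 3 wildtype ones for Sqle and Fdft1, and Dhcr7 is highest in sgApc.

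Of the regulators, Srebf1 varied widely and Srebf2 little. Srebf1 was at 412 and 461 CPM in sgNT, 612 and 702 in sgAsxl2, 397 and 512 in sgKdm6a, 536, 1539.5 and 587 in sgKmt2c, and 456 and 402 in sgSetd2. It was at 445, 448, 347 and 337 CPM in sgApc and at 106, 216, 135 and 146 CPM in sgTrp53. In CPM the 4 sgTrp53 libraries were the lowest of the 19 guide libraries, and the highest, sgKmt2c replicate 2, stood well above its own group. In TPM sgApc replicate 2 was at 85.7, within the sgTrp53 range of 68.1 to 131. Srebf2 stayed between 156 and 311 CPM in all 25 libraries, with sgTrp53 replicate 3 the highest and Kdm6a wildtype replicate 2 the lowest. Insig1, whose product retains SREBPs and is itself an SREBP target, ranged from 21.03 to 61.3 CPM in guide tumours and reached 116 CPM in Kdm6a wildtype replicate 2.

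In the fatty acid arm, Scd1, which puts the first double bond into stearate and palmitate, set the sgTrp53 tumours apart. It was at 1634 and 507 CPM in sgNT, 632 and 587 in sgAsxl2, 426 and 216 in sgKdm6a, 702, 955 and 349 in sgKmt2c, and 728 and 539.6 in sgSetd2. It was at 652, 606, 590.5 and 689.8 CPM in sgApc and at 150.3, 159, 132 and 46.5 CPM in sgTrp53. Every sgTrp53 library was below every other guide library. Scd2 was at 333, 298, 259.6 and 462 CPM in sgTrp53 and between 472 and 1393 CPM in the other guide libraries, which did not overlap either. In TPM these did overlap for Scd2, with sgApc replicate 2 at 129 against 163 to 308 in sgTrp53. Thrsp, a small protein known to promote fatty acid synthesis in lipogenic tissues, was at 2.81 and 41.7 CPM in sgNT, 34.7, 96.2 and 17.9 in sgKmt2c, 17.8, 12.5, 36.6 and 35.9 in sgApc, and 0.976, 2.7, 0.763 and 2.63 in sgTrp53. The 2 sgNT libraries lay far apart for this gene.

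**Figure D3:**
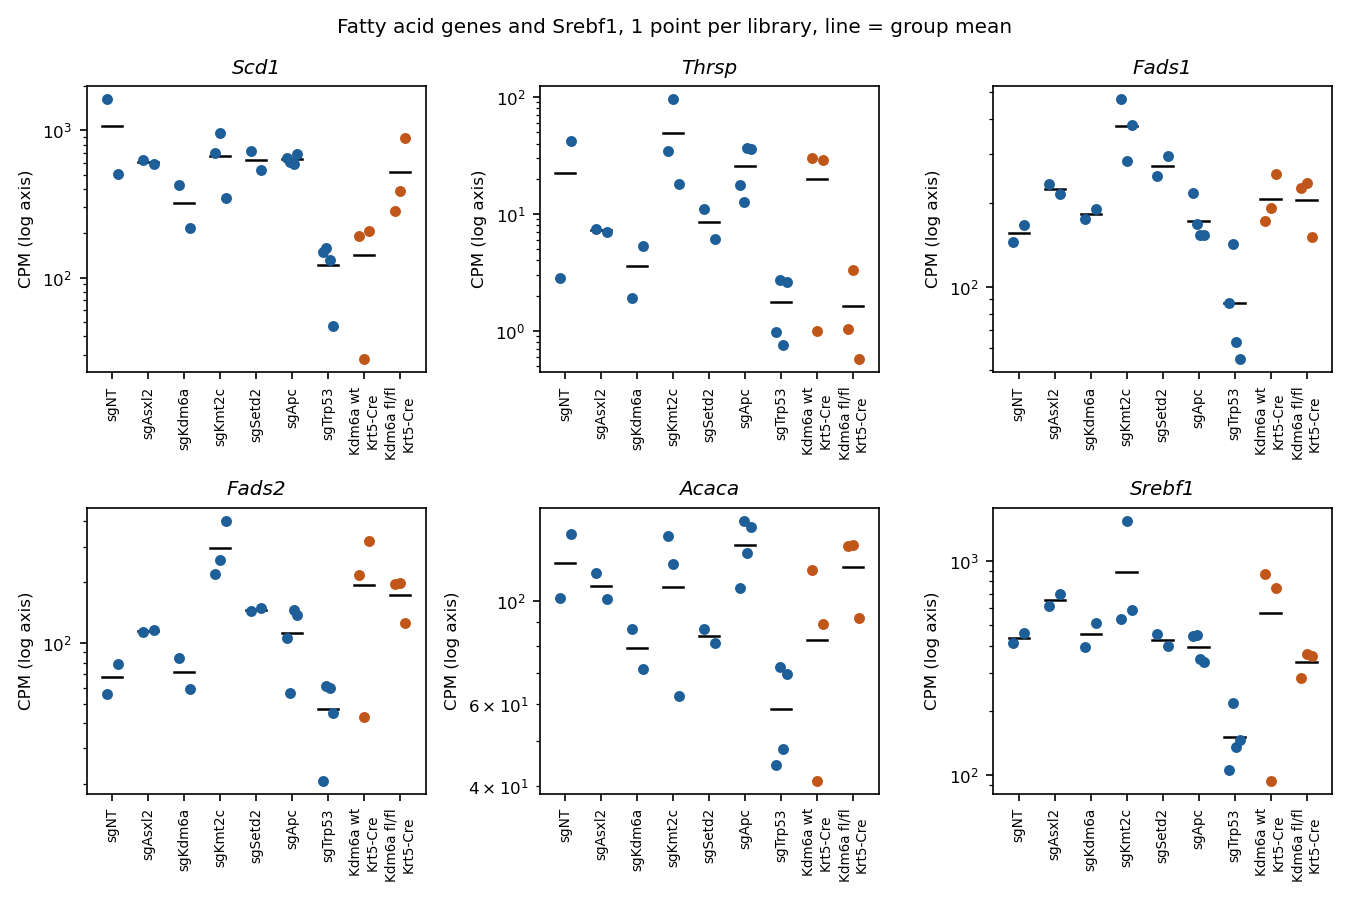
CPM on a log axis of 5 fatty acid genes and Srebf1 in every library by group (blue points, guide groups; orange points, Krt5-Cre groups; line, group mean). The sgTrp53 libraries are the lowest of the guide libraries for Scd1 and Srebf1, and Fads1 and Fads2 have their highest means in sgKmt2c.

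Of the guide groups, sgApc and sgTrp53, the largest, were also compared directly, without the sgNT libraries as control. No other pair of targeting guides was tested, so this difference cannot be ranked among such pairs. Of the 35 members 9 were called, and all 9 were higher in sgApc: 6 fatty acid genes, 2 sterol enzymes and Srebf1. Here and below a member is called at an edgeR quasi-likelihood adjusted p (Benjamini-Hochberg over all 18469 genes tested) under 0.05. Over all genes 12.8% were called in this comparison, and 4.55% were called higher in sgApc. The groups did not overlap for 12 of the 35 members and for 16.99% of all genes, beside the 12.8% called. The median log2 difference (sgApc over sgTrp53) was 0.62 over the fatty acid arm, 0.28 over the sterol enzymes and -0.08 over all genes tested.

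Scd1 averaged 635 ± 45.2 CPM (SD, n = 4) in sgApc and 122 ± 51.6 CPM (n = 4) in sgTrp53, a log2 difference of 2.28 (SE 0.51, edgeR adjusted p = 0.00665). Thrsp averaged 25.7 ± 12.3 and 1.77 ± 1.04 CPM, a log2 difference of 3.75 (SE 0.91, edgeR adjusted p = 0.0107). Acaca, the cytosolic acetyl-CoA carboxylase that makes malonyl-CoA, was at 106, 148, 127 and 144 CPM in sgApc and 44.4, 72.0, 48.1 and 69.5 CPM in sgTrp53, a log2 difference of 1.07 (SE 0.25, edgeR adjusted p = 0.00834). These 3 genes were called without any 1 of the 8 libraries.

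The other 6 called members had smaller differences, and each lost its call without at least 1 library. Fads1, the delta-5 desaturase of polyunsaturated fatty acids, was at 216, 168, 153 and 153 CPM in sgApc and 87.7, 142, 63.4 and 54.9 CPM in sgTrp53 (log2 0.90, SE 0.25, edgeR adjusted p = 0.0208), and kept its call in 5 of 8 such fits. Pmvk differed by 0.85 on the log2 scale (SE 0.23, edgeR adjusted p = 0.0223, 5 of 8 fits), with 29.3, 54.3, 33.1 and 34.0 CPM against 14.2, 25.5, 24.9 and 14.8 CPM. Its highest value came from sgApc replicate 2, the library with few genes detected. Dhcr7 differed by 0.70 (SE 0.21, edgeR adjusted p = 0.0349, 2 of 8 fits), and its groups did not overlap.

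Fasn was at 369.9, 417, 392 and 416 CPM in sgApc and 219.9, 261, 154 and 280.1 CPM in sgTrp53 (log2 0.70, SE 0.21, edgeR adjusted p = 0.0373, called in 1 of 8 fits). Acly was at 325, 255, 347 and 359 CPM against 196, 243, 156 and 199 CPM (log2 0.59, SE 0.18, edgeR adjusted p = 0.0387, 2 of 8 fits). Srebf1 differed by 1.30 (SE 0.41, edgeR adjusted p = 0.0406, 1 of 8 fits). The range of these adjusted p-values without 1 library was 0.0359 to 0.101 for Fasn, 0.0307 to 0.0968 for Acly and 0.0365 to 0.110 for Srebf1. Fads2, the delta-6 desaturase, was at 106, 56.8, 146 and 137 CPM against 20.8, 61.4, 60.1 and 45.0 CPM and missed the threshold (log2 1.16, edgeR adjusted p = 0.0598). Acss2, which makes acetyl-CoA from acetate, missed it as well (log2 0.72, edgeR adjusted p = 0.0933).

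Other measurements moved with this difference, and their part in it was not tested. All 6 alveolar milk markers were called higher in sgApc, with sums of 8186 to 12234 CPM against 78.3 to 970.0 CPM, and 4 of 6 luminal markers were called higher (3017 to 5393 against 261 to 2476 CPM). Of 6 fibroblast markers 5 were called lower in sgApc, with sums of 903 to 1813 CPM against 25700 to 73274 CPM. Fat cell markers summed to 34.3 to 183 CPM against 90.1 to 616 CPM. Of these, Fabp4 (log2 -4.55), Car3 (-7.65) and Lep (-5.51) were called lower in sgApc, and Lipe (1.09) was called higher. Car3 and Lep did not pass 3.55 and 0.436 CPM in either group. Both groups have 2 deep libraries and 2 others. Among the deep libraries the log2 difference was 3.01 for Scd1, 3.88 for Thrsp and 1.21 for Acaca, and among the others it was 2.02, 2.56 and 1.14. Without the 6 deep libraries, which leaves 2 sgApc and 2 sgTrp53 libraries, Dhcr7 was the only member called.

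**Figure D4:**
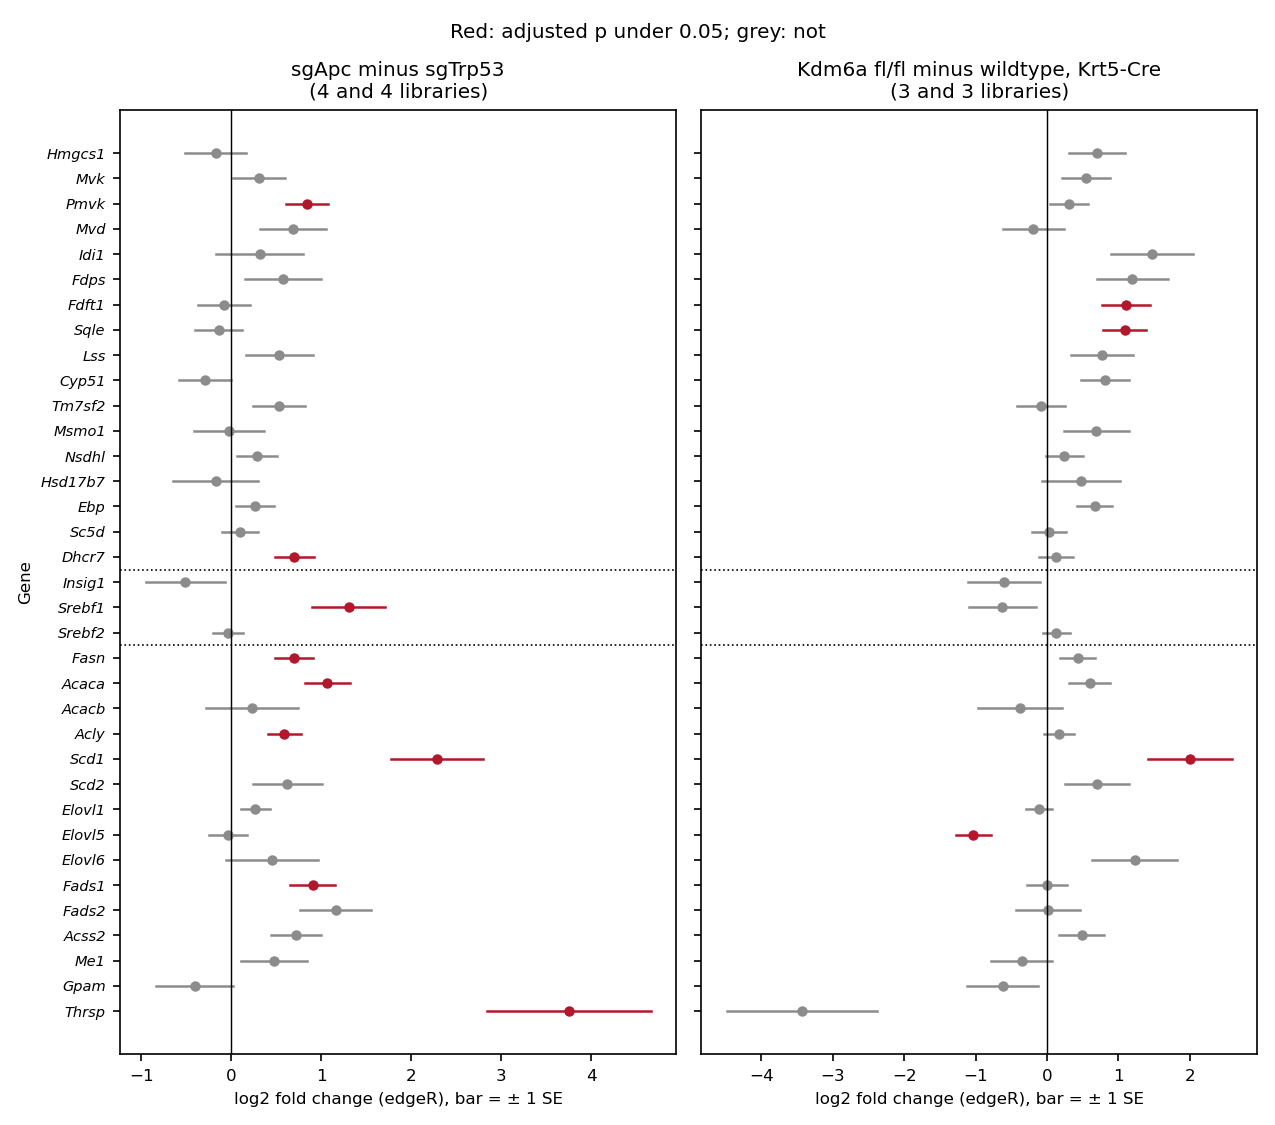
Log2 difference with 1 standard error on each side for each of the 35 genes, in sgApc over sgTrp53 and in Kdm6a fl/fl over wildtype (red, edgeR adjusted p under 0.05). All 9 red genes of the first comparison lie above 0, and of the 4 in the second only Elovl5 lies below 0.

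Against the sgNT control, sgTrp53 had 1 member called, Scd1. Because all guide groups are set against the same 2 sgNT libraries, and the 2 differ (Scd1 at 1634 and 507 CPM, Thrsp at 2.81 and 41.7 CPM, Elovl6 at 237 and 48.2 CPM), these contrasts share their error. Scd1 was lower in sgTrp53, at 122 ± 51.6 CPM (n = 4) against 1071 ± 797 CPM (n = 2), a log2 difference of -3.04 (SE 0.58, edgeR adjusted p = 0.0493). Over all genes 0.103% were called, and 0.0541% were called lower. The Scd1 call held in 1 of 6 fits without 1 library, that without sgTrp53 replicate 2, and the log2 difference ranged from -3.64 to -2.004, the latter without sgNT replicate 1.

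At an unadjusted p under 0.05, 11 of the 35 members were lower in sgTrp53 than in sgNT and none was higher, against 7.52% of all genes lower and 6.51% higher. Of the 35 log2 differences 31 were below 0, and the median was -0.84 over the fatty acid arm, -0.43 over the sterol enzymes and 0.01 over all genes. Without sgNT replicate 1 the sterol median was -0.10, with 10 of 17 below 0, the fatty acid median was -0.72, and 6 members had such a p. Fasn averaged 229 ± 55.7 CPM against 456 ± 60.2 CPM (log2 -0.90, SE 0.25, edgeR adjusted p = 0.124), and Acaca 58.5 ± 14.3 CPM against 120.1 ± 26.4 CPM (log2 -0.96, SE 0.29, edgeR adjusted p = 0.149). For Scd1, Fasn and Acaca the groups did not overlap, which held for 15 of the 35 members and for 30.55% of all genes. DESeq2 called 6 members, all lower in sgTrp53: Scd1, Thrsp, Fasn, Elovl6, Acss2 and the sterol reductase Tm7sf2, where it called 4.27% of all genes. In sgNT replicate 1 the sebaceous gland markers summed to 61.0 CPM, with Elovl3 at 39.0 CPM, against 0.0784 to 25.7 CPM in the other libraries. The part of this in the Scd1 and Elovl6 levels of that library was not tested. Fibroblast markers summed to 25700 to 73274 CPM in sgTrp53 against 3707 and 6153 CPM in sgNT. Luminal markers summed to 261 to 2476 CPM against 2834 and 4282 CPM, and alveolar milk markers to 78.3 to 970 CPM against 887 and 6648 CPM. The part of these markers in the differences was not tested.

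No member was called by edgeR in the other 5 guide groups against sgNT. The share of all genes with an unadjusted p under 0.05 was 2.15% in sgAsxl2, 3.94% in sgKdm6a, 7.94% in sgKmt2c, 4.29% in sgSetd2 and 10.0% in sgApc. In sgAsxl2 0% of all genes were called; 3 members had an unadjusted p under 0.05, all lower, and DESeq2 called 0. The largest differences were Thrsp at -1.63, Msmo1 at -1.31 and Idi1 at -1.24 on the log2 scale, and without sgNT replicate 1 Msmo1 stood at -0.84 and Idi1 at -0.30. In sgKdm6a, also with 0% of all genes called, 4 members had such a p, all lower, and DESeq2 called 0. The largest differences there were Thrsp at -2.59, Scd1 at -1.62 and Elovl6, an elongase of saturated chains, at -1.26. In sgSetd2, again 0%, 1 member had such a p (Fads1, higher by 0.76), and DESeq2 called 0. Its largest differences were Thrsp at -1.48, Elovl6 at -1.43 and Acacb at -1.39, and Acacb stood at -0.79 without sgNT replicate 1. In sgSetd2 30 of the 35 differences were below 0, and 17 were without that library.

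In sgApc 0.211% of all genes were called against sgNT and no member was. Unadjusted, 4 members had a p under 0.05, with Elovl1 (0.45) and Dhcr7 (0.56) higher and Elovl6 (-1.92) and Gpam (-1.23) lower on the log2 scale, and DESeq2 called 0. The largest differences were those of Elovl6, Acacb (-1.24) and Gpam, the acyltransferase that starts glycerolipid synthesis. Without sgNT replicate 1 these stood at -0.40, -0.64 and -0.63. Elovl1, which elongates very long chains, was at 106, 105, 113 and 106 CPM in sgApc against 78.9 and 76.6 CPM in sgNT, and these groups did not overlap. The sgApc and sgNT groups were apart for 5 members and for 26.35% of all genes, so this separation does not set Elovl1 apart. Thrsp lay on the other side of 0 in sgAsxl2 (1.41), sgKdm6a (0.45) and sgSetd2 (1.56) once sgNT replicate 2 was left out. In sgKdm6a Scd1 stood at -0.58 without sgNT replicate 1. Elovl6 lay above 0 in sgKdm6a (0.26), sgKmt2c (0.10) and sgSetd2 (0.088) once sgNT replicate 1 was left out.

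In sgKmt2c 0% of all genes and 0 members were called by edgeR against sgNT. Unadjusted, 11 members had a p under 0.05: 3 fatty acid genes higher, and 7 sterol enzymes and 1 fatty acid gene lower, while 3.42% of all genes were higher and 4.52% lower. Fads2 was at 219.8, 258 and 404 CPM against 56.1 and 78.9 CPM in sgNT (log2 2.08, SE 0.54, edgeR adjusted p = 0.243). Fads1 was at 473, 283 and 382 CPM against 144 and 167 CPM (log2 1.23, SE 0.33, edgeR adjusted p = 0.243), and Elovl5, which elongates polyunsaturated chains, at 86.6, 112 and 67.1 CPM against 50.01 and 43.0 CPM (log2 0.88). All 3 sgKmt2c libraries were above both sgNT libraries for these 3 genes, which act in turn on the same polyunsaturated fatty acids. In this comparison the groups did not overlap for 11 members and for 34.03% of all genes, so such a separation is common here.

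Msmo1 (-1.80) and Elovl6 (-1.42) were the largest differences in the other direction. DESeq2 called 3 members in sgKmt2c: Fads1 and Fads2 higher and Msmo1 lower, where it called 1.24% of all genes. The median log2 difference was -0.66 over the sterol enzymes and -0.07 over the fatty acid arm. Without sgNT replicate 1 these medians were -0.36 and 0.32, and 4 members had an unadjusted p under 0.05. Leaving out that library took Msmo1 from -1.80 to -1.32 and Hmgcs1 from -1.24 to -0.37. In sgKmt2c 2 of the 3 libraries were deep and in sgNT neither was. Alveolar milk markers summed to 9305 to 21693 CPM in sgKmt2c against 887 and 6648 CPM in sgNT, and basal markers to 3534 to 6946 CPM against 15074 and 17295 CPM. The part of depth and of these markers in the values was not tested.

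A single test for any difference among the 7 guide groups called 5 members, where 10.1% of all genes were called. Fads1 (edgeR adjusted p = 0.00242) and Fads2 (0.0101) kept the call without any 1 of the 19 libraries. Their group means ran from 87.0 ± 39.3 CPM in sgTrp53 to 379.6 ± 95.1 CPM in sgKmt2c for Fads1 and from 46.8 ± 18.9 to 294 ± 97.4 CPM in the same groups for Fads2. Between these extremes Fads1 averaged 156 ± 16.2 CPM in sgNT, 172 ± 29.99 in sgApc, 182 ± 10.3 in sgKdm6a, 225 ± 14.2 in sgAsxl2 and 273 ± 30.6 in sgSetd2. The sgNT, sgApc and sgKdm6a means lay within the SD of sgApc of each other. Srebf1 (edgeR adjusted p = 0.0274), Thrsp (0.0296) and Scd1 (0.0337) kept the call in 15, 10 and 6 of 19 such fits. No sterol enzyme was called by edgeR; 2 had an unadjusted p under 0.05, and DESeq2 called 4. Unadjusted, 26.2% of all genes had such a p, and DESeq2 called 31.9%. Without the 6 deep libraries 0 of the 35 members were called.

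Among Krt5-Cre tumours, Kdm6a fl/fl differed from wildtype in 4 members, where 7.56% of all genes were called. Sqle, Fdft1 and Scd1 were higher, where 4.18% of all genes were called higher, and Elovl5 was lower, where 3.38% were called lower. Kdm6a encodes an enzyme that removes methyl groups from histone H3. Of the 17 sterol enzymes 15 had a log2 difference above 0, with a median of 0.67, against 0.01 over the fatty acid arm and -0.10 over all genes. With DESeq2 scaling the medians were 0.56, -0.08 and -0.20, and 34.7% in place of 55.3% of all genes called were higher.

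Sqle was at 118, 119 and 117 CPM in Kdm6a fl/fl and at 73.2, 26.3 and 78.7 CPM in wildtype (log2 1.09, SE 0.30, edgeR adjusted p = 0.0357). Fdft1 was at 45.8, 50.9 and 65.0 CPM against 30.9, 14.5 and 33.4 CPM (log2 1.10, SE 0.33, edgeR adjusted p = 0.0498). For both enzymes, which act one after the other on the way to and from squalene, the groups did not overlap and wildtype replicate 2 was the lowest library. Scd1 was at 283, 389.5 and 892 CPM against 192, 27.9 and 208 CPM (log2 2.00, SE 0.58, edgeR adjusted p = 0.0430), with the same library lowest. Elovl5 was at 63.7, 64.3 and 54.1 CPM against 157, 71.4 and 164 CPM (log2 -1.03, SE 0.24, edgeR adjusted p = 0.0181), and here wildtype replicate 2 lay nearest the fl/fl libraries.

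Thrsp was at 1.03, 3.3 and 0.574 CPM in fl/fl and at 29.9, 0.995 and 29.2 CPM in wildtype, which overlapped (log2 -3.43, edgeR adjusted p = 0.0525). Idi1 lay between 13.3 and 15.5 CPM in the 3 fl/fl libraries and between 4.71 and 5.83 CPM in the 3 wildtype ones, well apart but not called (log2 1.47, SE 0.57, edgeR adjusted p = 0.112). Ebp, the sterol isomerase, was at 56.4, 58.3 and 49.2 CPM against 27.2, 39.0 and 33.8 CPM (log2 0.67, edgeR adjusted p = 0.0977), and Cyp51 at 107, 91.7 and 114 CPM against 56.7, 69.5 and 42.1 CPM (log2 0.82, edgeR adjusted p = 0.131). For these 3 sterol enzymes too every fl/fl library was above every wildtype library. The groups were apart for 9 of the 35 members (Mvk, Idi1, Fdps, Fdft1, Sqle, Cyp51, Ebp, Scd1 and Elovl5) and for 24.1% of all genes, beside the 7.56% called.

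Which members were called turned on wildtype replicate 2, the library with 14685 CPM of macrophage markers. Without it 4 members were called again, but only Elovl5 (log2 -1.22, edgeR adjusted p = 0.00674) was among the first 4. The others were Ebp (1.03, adjusted p = 0.0114), Thrsp (-4.00, adjusted p = 0.0150) and Cyp51 (1.23, adjusted p = 0.0344), while Sqle stood at 0.81 (adjusted p = 0.101), Fdft1 at 0.92 (adjusted p = 0.127) and Scd1 at 1.54 (adjusted p = 0.0956). Without any 1 of the 3 fl/fl libraries 0 members were called, and the same held without fl/fl replicates 1 and 2, which were deposited in a table of their own. Macrophage markers summed to 925, 1065 and 43.7 CPM in the fl/fl libraries. Sebaceous gland markers summed to 25.7 CPM in fl/fl replicate 3, the library with Scd1 at 892 CPM. In the other fl/fl libraries they summed to 2.59 and 3.43 CPM, and in wildtype to 1.14 to 6.33 CPM. Basal markers summed to 6848 to 9410 CPM in fl/fl and to 522 to 5988 CPM in wildtype, with Krt17 called higher (log2 3.58, edgeR adjusted p = 0.0469) and Myh11, a smooth muscle myosin, called lower (log2 -3.73, edgeR adjusted p = 0.0268). The part of these markers in the differences was not tested.

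The change with Kdm6a loss was also compared between the Krt5-Cre and the guide tumours, in a test added after the data were seen. The value tested is the signed Krt5-Cre change minus the signed guide change, so a value above 0 need not be a larger change. No member was called by edgeR, and 0.0108% of all genes were. An unadjusted p under 0.05 was seen in 12 members, 11 of them above 0. DESeq2 called 2, Scd1 (above 0) and Elovl5 (below 0). Over all genes 11.8% had such a p, with 6.98% above 0 and 4.85% below, and DESeq2 called 2.79%. The largest differences between both changes were Scd1 at 3.62 (edgeR adjusted p = 0.119), Idi1 at 2.65 and Elovl6 at 2.49 on the log2 scale. Scd1 was higher by 2.00 in Kdm6a fl/fl over wildtype and stood at -1.62 in sgKdm6a over sgNT. All 17 sterol enzymes had a difference above 0. In sgKdm6a over sgNT all 17 were below 0, with a median log2 difference of -0.47, and of -0.22 without sgNT replicate 1. That library was high across the sterol enzymes, and Kdm6a wildtype replicate 2 had the lowest sterol sum of all libraries. Elovl6 was at 237 and 48.2 CPM in sgNT and at 44.5, 47.5 and 229 CPM in Kdm6a fl/fl. Its high libraries, sgNT replicate 1 and fl/fl replicate 3, also held the highest Scd1 of their groups, 1634 and 892 CPM. Sebaceous gland markers summed to 61.0 and 25.7 CPM in these libraries. The part of these libraries in the difference was not tested. Virus, strain and the kind of Kdm6a loss cannot be told apart here.

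Across the 25 libraries each arm was correlated with the SREBP gene it is best known for. The crossed pairs were not computed, so the values do not show that an arm follows 1 regulator more than the other. Of the 15 fatty acid genes, 12 had a positive Pearson correlation of log2(CPM + 1) with Srebf1 at an adjusted permutation p under 0.05 (32 relations in the family, 100000 resamples each, two-sided), with a median r of 0.653. The lowest of these 12 was 0.479, a value that 15.8% of all genes tested reached with Srebf1, and the median over all genes was 0.12. By Spearman's rho, 8 of 15 passed, with a median of 0.515. The highest was Scd2 (r = 0.826, rho = 0.689), and the 3 that did not pass were Elovl1 (r = -0.133), Acly (0.144) and Gpam (0.397). Of the 17 sterol enzymes, 14 passed with Srebf2 by r (median 0.629) and 14 by rho (median 0.562). The lowest r of these 14 was 0.468, which 8.57% of all genes reached with Srebf2, and the median over all genes was 0.12. Fdft1 had the highest r (0.771, rho = 0.632), and Ebp (0.155), Mvd (0.329) and Pmvk (0.400) did not pass.

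As deviations from the group mean the median r was 0.662 for Srebf1 and 0.675 for Srebf2, though Fads1 then stood at 0.03 with Srebf1, and over all genes it was 0.204 and 0.230. The lowest r that passed in this form was 0.506 with Srebf1 and 0.436 with Srebf2, values that 23.1% and 24.3% of all genes reached. Deviations within a group are tied by their mean, and in groups of 2 libraries they mirror each other. The permutations treated all deviations as free of each other, so the threshold for passing in this form is too lenient. Within the 19 guide libraries the medians were 0.647 and 0.668. Without the 2 libraries farthest from the median of the regulator, 10 of 15 and 12 of 17 passed by r and 7 and 7 by rho, with median r of 0.588 and 0.517. Shares of one total tie genes of a library together, so r here describes levels that move together between libraries. A p of 1e-05 is the smallest that these permutations can give.

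**Figure D5:**
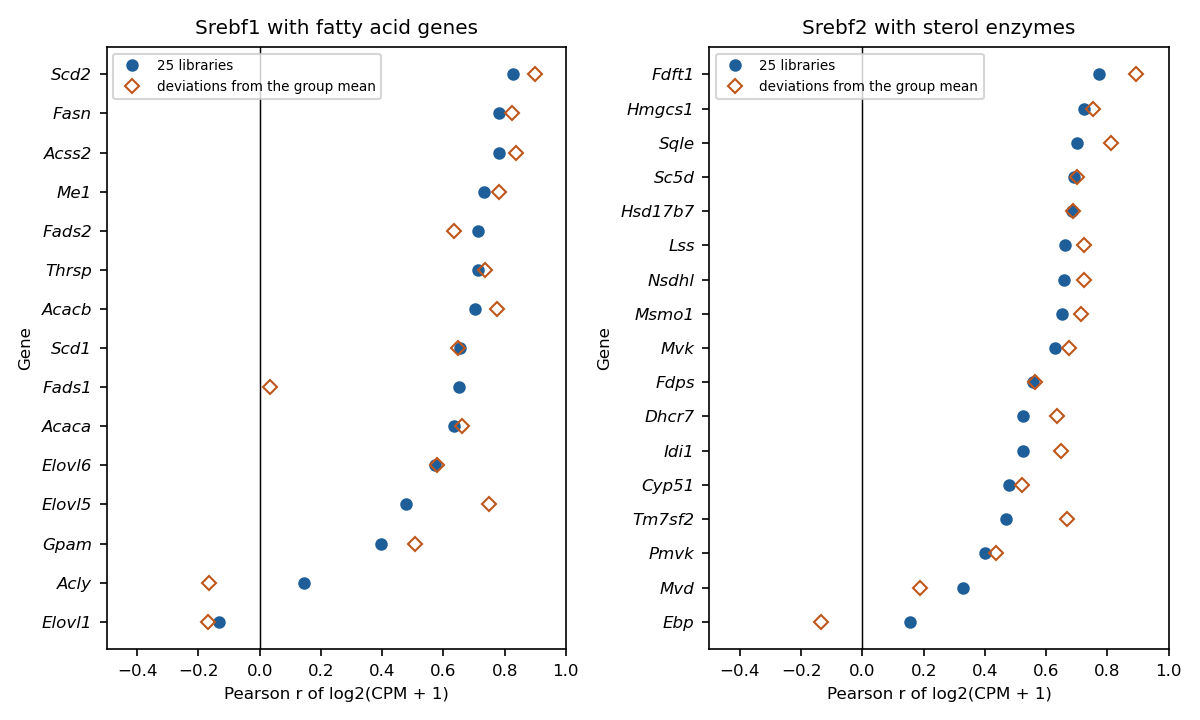
Pearson r of log2(CPM + 1) of each fatty acid gene with Srebf1 and of each sterol enzyme with Srebf2 (filled points, all 25 libraries; open diamonds, deviations from the group mean). Most lie above 0.4 in both forms, while Elovl1 and Acly with Srebf1 and Ebp with Srebf2 lie near 0.

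Neighbouring lipid pathways were tested in the same fits. In sgApc over sgTrp53, 4 of 11 triglyceride and lipid droplet genes were called higher. Over all genes 4.55% were called higher and 12.8% in either direction. Among the 4 were Btn1a1, a coat protein of milk fat droplets (log2 3.90), Pnpla2, a triglyceride lipase (1.39), and Dgat1, which makes triglyceride (0.80). Acadm was the 1 of 10 fatty acid oxidation genes called (0.57), and none of 9 genes of SREBP processing and sterol sensing or of 9 of sterol transport and storage was called. In Kdm6a fl/fl over wildtype, 3 of the 11 triglyceride genes were called lower, where 3.38% of all genes were. These were the droplet coat genes Plin3 (-1.66) and Plin2 (-1.47), and Lpl, the lipoprotein lipase (-3.36). Of the 9 SREBP processing and sterol sensing genes, Mylip, which marks the LDL receptor for breakdown, was lower (-1.97). No gene of these lists was called in any guide group against sgNT. The test for any difference among guide groups called Scap, of the SREBP processing list. Among triglyceride genes it called Lpin1, Btn1a1 and Pnpla2, where 10.1% of all genes were called.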

How the data were processed

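The authors deposited raw counts per gene, made, per the submitters' processing notes, with HISAT2 2.1.0 and featureCounts on mm10 or GRCm38; DESeq2 is named there too. No source used here gives the annotation release, strand setting or treatment of shared reads. The table of 23 columns and that of 2 were joined on 53070 shared symbols. The 26 date-like symbols of the second table were left out of the join, and symbols outside it held at most 0.636% of that table's counts. Column n was taken as sample record n, an assumption that no label settles.

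CPM used column totals, and TPM the exon unions of GENCODE M21. Tests used edgeR 4.0.16 in R 4.3.3 (TMM, filterByExpr, quasi-likelihood) on all 25 libraries with 1 coefficient per group, Benjamini-Hochberg adjusted over 18469 genes at 0.05, and were tested on simulated data. DESeq2 1.42.0 was an alternative, beside library totals, no filter, only the groups compared, a replicate block, libraries left out, and, chosen after seeing the data, a depth term, no deep libraries and no libraries that stand apart. SE is the size of the log2 difference over the square root of F. Correlations used scipy 1.17.1 and log2(CPM + 1). Promoter windows are from RefSeq (GRCm38.p6).

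Members and lists were chosen with earlier results of these data known. Named genes are members with adjusted p under 0.05 (at most the 12 smallest) or, where none passes, the 3 with the largest log2 difference; others named were chosen after their values were seen. Taking 3 counts as the most that a 0 allows, the limit lay between 0.0687 and 0.388 CPM, for counting error only.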

Additional observations from a re-analysis of the deposited data

Results flagged for a closer look

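Dixon's test at 95% was run on each of the 35 members in sgApc and sgTrp53, the groups of 4 libraries, 70 tests in all, and 3 values lay too far from the rest of their group. Chance gives about 1 in 20 tests. Sc5d, the sterol C5-desaturase, was at 42.4 CPM in sgApc replicate 1 against 54.8 to 56.7 CPM in the other sgApc libraries. Elovl6 was at 59.5 CPM in sgApc replicate 2, the library with few genes detected, against 27.2 to 31.9 CPM. Lss was at 32.9 CPM in sgTrp53 replicate 3 against 14.4 to 15.9 CPM, in the library whose sterol enzymes summed highest in its group.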

How the results depend on the processing

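Counts of members called are given here against those of the edgeR fit above. Against sgNT, sgKmt2c had 0, then 3 with DESeq2, 2 with a depth term and 1 without both libraries that stand apart. sgTrp53 had 1, then 6 with DESeq2, 7 without both libraries that stand apart, 0 with library totals, only the groups compared, no separate-table libraries, no deep libraries or a depth term, and 0 to 1 without 1 library. sgApc over sgTrp53 had 9, then 5 with only the groups compared or no separate-table libraries, 1 without the deep libraries, and 4 to 7 without 1 library. Kdm6a fl/fl over wildtype had 4, then 2 with library totals, 0 with only the groups compared or no separate-table libraries, and 0 to 4 without 1 library. Any difference among guide groups had 5, then 18 with DESeq2, 9 with only the groups compared, 0 without the deep libraries, 10 without both that stand apart, and 2 to 6 without 1. The difference between the Kdm6a changes had 0, then 2 with DESeq2, 3 without both that stand apart, and 0 to 1 without 1. Without 1 library Thrsp ranged from -2.54 to 1.41 in sgAsxl2, from -3.49 to 0.45 in sgKdm6a and from -2.39 to 1.56 in sgSetd2, above 0 without sgNT replicate 2. Elovl6 ranged from -1.99 to 0.26 in sgKdm6a, from -2.14 to 0.10 in sgKmt2c and from -2.15 to 0.088 in sgSetd2, above 0 without sgNT replicate 1. The cause of these shifts was not tested, beyond fewer libraries or genes where the setting leaves them out. Of 629 values for single genes under an alternative, 479 kept their direction and side of the threshold, 138 lost the call and 6 gained it.

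Replicate numbers come from the labels' order and name no shared litter or day. Over 83 same-numbered pairs the deviations correlated with a median r of -0.00305, and 5 of 25 libraries correlated best with their own number. With a replicate block sgTrp53 over sgNT had 0 calls, sgApc over sgTrp53 6, Kdm6a fl/fl over wildtype 2 and any difference 2.

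With 2 to 4 libraries a group, differences near 2-fold were often not detectable, and low members such as Thrsp rest on few counts in some of the shallow libraries.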
